A study of Homo sapiens and Mus musculus with 16 samples.

Results

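In HPAF-II pancreatic cancer cells, 6111 accessible regions were listed both in control cells and after CRISPR knockout of the nuclear receptor HNF4G but ranked far lower after it, and they are called weakened regions here. They were chosen on the region score the authors deposited. Each region of the control (Cas9) list that overlapped the HNF4G-KO list by at least 1 bp was paired with its longest overlap, the score was turned into a percentile among these shared regions in each list, and a pair was kept where the percentile in HNF4G-KO lay 20 or more points below that in control. Of 88632 shared regions, 6.89% met this rule. A fall of that size needs a control percentile of at least 20, and of the 70977 shared regions at or above it 8.61% weakened. The mirror rule, a rise of 20 or more points, was met by 5526 shared regions, or 6.23%. The pairing weighs on this count. Where several control regions shared 1 KO region, 1270 of 2742 rose (46.3%) and 17 weakened. Where 1 control region was paired with 1 KO region, 5.02% rose and 6.98% weakened.

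HPAF-II is an established human pancreatic adenocarcinoma line. Accessibility was measured by ATAC-seq in 4 control replicates (genotype WT, treatment CRISPR-Cas9) and 4 HNF4G-KO replicates (genotype KO, CRISPR aimed at HNF4G). Mouse KPC tumor and KPC liver mets lines made up the other 8 of 16 samples and were not used. The study's methods describe both a pool of knockout clones grown from single cells and clones with heterozygous frameshift mutations, and do not say which gave these samples, so that how much intact HNF4G remained is not known. Both were clonal, and effects of the edited gene and of picking clones, with any copy-number differences they carry, cannot be told apart. Each group was represented by 1 list of regions, 118107 in control and 97047 in HNF4G-KO, with no value per replicate and no read depth. No test between the groups was therefore possible, every value below describes these lists, and the 95% Wilson intervals cover counting error only. Promoters of the epithelial genes EPCAM, KRT8, KRT18, KRT19 and CDH1 held regions in both lists, whereas those of the blood cell genes PTPRC and CD3E, the endothelial genes PECAM1 and CDH5 and the fibroblast genes DCN and LUM held none. COL1A1 and COL1A2 held 1 region each in both lists.

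HNF4G and its paralog HNF4A are orphan nuclear receptors that bind DNA as dimers and keep gut, liver and pancreatic epithelial genes active, mostly from enhancers. Their preferred site carries an arrangement that other nuclear receptors bind less well, with CAAAGTCCA as its core. ATAC-seq reads open DNA and does not name the factor bound there.

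The sequences below show what the HNF4 core looked like in weakened regions. They are 5 of the weakened regions with this consensus that stood highest in control among 1-to-1 pairs of at least 200 bp, named for the nearest protein-coding gene, given 5′ to 3′ on hg38 with 36 bases on each side and the consensus, on either strand, in capitals.
TEX13C (chrX:125289396-125289476, plus strand): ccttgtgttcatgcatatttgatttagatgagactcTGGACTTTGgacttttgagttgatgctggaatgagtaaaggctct
DPY19L1 (chr7:35012363-35012443, plus strand): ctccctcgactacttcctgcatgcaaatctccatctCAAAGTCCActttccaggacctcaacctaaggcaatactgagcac
CXCL13 (chr4:77631541-77631621, plus strand): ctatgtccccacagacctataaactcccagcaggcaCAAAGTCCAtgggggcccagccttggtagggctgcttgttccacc
H3Y1 (chr5:17713613-17713693, plus strand): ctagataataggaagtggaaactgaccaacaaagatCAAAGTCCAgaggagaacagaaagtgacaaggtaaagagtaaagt
H2AP (chrX:37958636-37958716, plus strand): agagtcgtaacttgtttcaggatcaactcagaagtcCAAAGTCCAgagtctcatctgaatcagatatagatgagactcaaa

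The region near TEX13C had a score of 749 in control and 146 in HNF4G-KO and moved from percentile 91.6 to 39.9. The region near CXCL13, a chemokine gene, had scores of 655 and 98 and moved from 87.5 to 23.8, the deepest change of these. The intronic region of DPY19L1 moved from 89.98 to 51.9 and the region nearest H3Y1, in an intron of LINC02223, from 86.2 to 50.1. The region nearest H2AP moved from 83.5 to 59.6. The sites near TEX13C and H2AP resembled each other beyond the core, with 53 of 72 flanking bases identical when both were read on the strand of the consensus. Most weakened regions held no such core. The next sequences come from weakened regions with very deep falls and without the HNF4 consensus, and show 240 bases about the center of the HNF4G-KO region, with the AP-1 consensus TGACTCA in capitals where it occurred.
NAALADL2 (chr3:175150969-175151208, plus strand): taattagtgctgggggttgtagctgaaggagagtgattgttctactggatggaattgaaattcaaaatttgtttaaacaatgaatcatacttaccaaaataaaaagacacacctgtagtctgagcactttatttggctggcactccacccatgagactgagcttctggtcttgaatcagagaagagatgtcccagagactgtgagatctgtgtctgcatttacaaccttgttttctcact
NAF1 (chr4:162684131-162684370, plus strand): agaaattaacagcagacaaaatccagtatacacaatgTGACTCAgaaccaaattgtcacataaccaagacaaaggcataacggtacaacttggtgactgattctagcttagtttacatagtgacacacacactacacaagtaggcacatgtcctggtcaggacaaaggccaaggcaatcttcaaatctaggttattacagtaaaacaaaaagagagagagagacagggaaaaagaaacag

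The region in an intron of NAALADL2 spanned chr3:175150736-175151515 and had a score of 545 in control and 33 in HNF4G-KO, so that it moved from percentile 81.1 to 0.434. The intergenic region nearest to NAF1 lay 449062 bp from that gene, which encodes an assembly factor of small nucleolar ribonucleoproteins. This region moved from percentile 88.0 to 12.7. Its KO counterpart was 215 bp wide against 836 bp in control.

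The weakened regions came mainly from the middle of the control list. Their control percentile ranged from 20.4 to 96.9 with a median of 50.8, and their HNF4G-KO percentile had a median of 20.01. In scores, the median was 266 in control (126 to 945) and 89 in HNF4G-KO (26 to 369), beside medians of 260 and 188 over all shared regions. The share that weakened was highest between control percentiles 40 and 50, at 15.1%, and 0.677% between 90 and 100. Their change in percentile had a median of -26.3 points. It was -30 or lower in 2010 regions, -40 or lower in 604, -50 or lower in 164 and -70 or lower in 12. Just inside the threshold were regions near ESD (-20.001), MGRN1 (-20.01) and RGMB (-20.01), and just outside it regions near GP6 (-19.997), SEC11C (-19.99) and NCK2 (-19.99). These values restate the rule and support nothing beyond it.

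Weakened regions were also called narrower in HNF4G-KO. Their median width was 507 bp in control and 331 bp in HNF4G-KO, and the median ratio of the widths was 0.720, beside 0.920 over all shared regions. In 89.2% of weakened regions the KO region was the narrower of the pair, against 68.9% of the other shared regions, and in 70.1% it lay wholly inside the control region. Width comes from the same calls as the score and is no independent support. Of the weakened regions, 5775 (94.5%) paired 1 control region with 1 KO region. Where a control region overlapped several KO regions, 10.2% weakened.

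The 10 largest falls among 1-to-1 pairs of at least 200 bp lay away from promoters, in introns or between genes. Behind the NAALADL2 region came an intronic region of the noncoding gene LINC01091. It lay 309119 bp from the nearest protein-coding gene, SPRY1, which encodes an inhibitor of receptor tyrosine kinase signaling. It moved from percentile 89.2 to 10.8, a change of -78.3 points. An intronic region of CSMD3 changed by -76.4 points (82.0 to 5.67). NAF1 followed at -75.3. Next were regions nearest to, but often far from, the protocadherin gene PCDH10 (-73.6, 1564293 bp away) and the HMG-box factor gene TOX (-72.1, 409581 bp). Then came EMCN (-71.9, 94656 bp), TDRD15 (-69.9, 860259 bp), ADAM7 (-69.9, 177418 bp) and the actin-binding protein gene SHROOM4 (-69.2, 13449 bp). The PCDH10 region lay in an intron of the noncoding gene LINC02377. Of these 10 regions 7 held an AP-1 consensus and none held the HNF4 consensus, beside 39.3% and 2.68% of all weakened regions. By chromosome, 4 of the 10 lay on chromosome 4 and 3 on chromosome 8, which held 8.5% and 5.3% of all weakened regions. With 10 regions these counts are small.

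At protein-coding promoters, the 5 largest falls among 1-to-1 pairs of at least 200 bp were smaller than these. A region 992 bp from a start site of CDH11, a cadherin of mesenchymal cells, moved from percentile 68.3 to 3.22. A region at an internal start site of NAALADL2 moved from 71.0 to 11.4. The regions at CXCR3, a chemokine receptor (69.8 to 20.9), NUMB, an inhibitor of Notch signaling (67.0 to 18.1), and PKD2L2 (49.8 to 1.35) changed by between -48.9 and -48.45 points. Control regions that overlapped several KO regions had deeper falls at promoters, which were looked at after their values had been seen, with -75.1 points at KDM3A, a histone demethylase gene, and -73.3 at WDFY1.

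The HNF4 consensus was found more often in weakened regions than in comparable regions. It was searched on both strands of the whole control region and was present in 164 of 6111 weakened regions, or 2.68% (2.31 to 3.12). Comparable regions were the other shared regions at control percentile 20 or higher, weighted to the same classes of control percentile, width and GC content (5 classes each), and held it in 1.52%. The difference was 1.16 percentage points and the ratio 1.76. Over all shared regions the share was 1.65%. The same letters written backwards gave 0.622% and 0.6001%, a difference of 0.0218 points. Read the other way, 12.5% of the 1308 regions with the consensus weakened (10.9 to 14.4), against 8.54% of those without it.

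At promoters few weakened regions held the consensus. Outside promoters 2.88% of weakened and 1.504% of comparable regions held the consensus. At promoters the shares were 1.43% (0.819 to 2.48, 12 of 840) and 1.51%. Within 200 bp about the center the shares were 1.26% and 0.651%. The site lay a median of 109 bp from the center of the control region in weakened regions and 151 bp in the other shared regions with a site, which were wider. As a share of the distance from center to edge this was 34.7% against 40.7%. The site lay within 50 bp of the center in 29.3% (22.8 to 36.6) and 17.7% (15.6 to 20.1), values not adjusted for width. In 78.0% of weakened regions with a site (71.1 to 83.7) the narrower KO region still covered it, against 88.5% (86.5 to 90.2). Among shared regions at control percentiles 40 to 80, which were open to change in both directions, the share with the consensus was 4.04% (2.69 to 6.05) where the change was -40 or lower, 3.23% from -40 to -30, 2.29% from -30 to -20 and 1.43% (0.821 to 2.49) above 20.

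Sequences close to the consensus were looked at after these values had been seen. All 27 that differ from it at 1 base were taken, whether or not HNF4 receptors are known to accept them. Of these, 12 had a share of weakened regions above the 8.61% of all regions compared. For 6 the interval lay wholly above it, and 1 reached the share of the consensus itself. The median over the 27 was 8.2%. CAAAGGTCA, found where nuclear receptor motifs repeat with a spacer of 1 base, was held by 1064 regions, of which 13.2% weakened (11.3 to 15.3). The shares were 13.3% (10.6 to 16.4) for CAAAGTACA, 12.1% (9.43 to 15.4) for TAAAGTCCA, 11.3% (9.32 to 13.6) for CAAAGTTCA and 10.4% (8.85 to 12.3) for CAGAGTCCA. At the other end were CACAGTCCA with 4.34% (3.09 to 6.07) and CAAAGCCCA with 5.47% (4.24 to 7.03). Regions could hold several of these sequences, so the counts overlap.

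Of the other 9 factor families, TEAD and CTCF stood furthest from comparable regions in ratio. The TEAD consensus (ACATTCCA), read by the partners of YAP, was held by 5.37% of weakened regions (4.83 to 5.96) and 4.06% of comparable ones, beside 3.94% over all shared regions. CTCF, the insulator protein, went the other way, with 3.88% (3.42 to 4.39) and 6.63%, and so did the consensus AGATAAG of GATA factors, with 6.38% (5.80 to 7.02) and 8.05%. CTCF and GATA were held by 4.92% and 7.497% of all shared regions. The AP-1 consensus (TGACTCA) was the most frequent, in 2401 weakened regions or 39.3% (38.1 to 40.5), beside 37.98% of comparable and 34.1% of all shared regions. FOXA (TGTTTAC), a pioneer factor family, was held by 11.5% (10.7 to 12.3), beside 10.8% and 10.9%. For HNF1, ETS (CCGGAAGT) and KLF (GGGCGTGGC or GGGTGTGGC) the comparable share lay inside the interval of the weakened regions. The same held for RUNX (TGTGGTTT) and for FOXA. None of the 10 sequences was found in 37.98% of weakened regions and 38.9% of comparable ones. A match to letters does not show that a factor was bound.

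The strengthened regions, set beside regions comparable to them, held the HNF4 consensus in 0.778% (0.578 to 1.05) against 1.59% and the TEAD consensus in 2.26% against 3.73%. These comparable regions were matched on KO percentile and KO width, whereas the control region was the one searched. In strengthened regions the control region had a median of 409 bp and the KO region 537 bp. The median ratio of KO to control width was 1.13, beside 0.920 over all shared regions. Of the strengthened regions, 1270 shared their KO region with another control region, and the part of this in the values here was not tested. Less sequence was thus searched for a given KO width. All 10 families were below comparable regions here, and the part of the shorter sequence in this was not tested. CTCF was below in both directions, with 2.88% of strengthened regions against 6.01%, and so were GATA, HNF1 and ETS. AP-1 was held by 23.8% of strengthened regions against 30.8%.

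Weakened regions lay mostly away from promoters. Promoters, within 1 kb of any annotated start site in GENCODE release 44, made up 13.7% of them (12.9 to 14.6), against 21.7% of other shared regions comparable in control percentile and width, a difference of -7.94 percentage points. Introns held 48.3% and intergenic sequence 34.4%, against 44.7% and 29.7%. Of all shared promoter regions 3.36% weakened, against 8.14% of intronic and 8.62% of intergenic ones. With distance from a protein-coding start site the share rose from 2.53% within 1 kb to 6.84% between 5 and 20 kb, 11.2% between 100 and 500 kb and 16.5% (14.7 to 18.4) beyond 500 kb. The median distance was 27177 bp in weakened regions and 10984 bp in the other shared regions at control percentile 20 or higher. Weakened regions were also poorer in GC (median 46.3% against 50.5%) and in CpG, with a median ratio of observed to expected CpG of 0.184 against 0.246.

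The weakened regions were unevenly spread over chromosomes. On chromosome 4, 518 of 3397 shared regions weakened, or 15.2% (14.1 to 16.5), and on chromosome X 11.9% (10.6 to 13.3). Leaving out chromosome Y with its 6 shared regions, chromosome 2 followed with 9.41%, and chromosome 17 was lowest with 3.96%. The median change over all shared regions of chromosome 4 was -4.50 points, and 33.9% of its control regions had no KO counterpart at all, against 24.96% over the whole list. The excess lay mostly beyond 80 Mb. Of 294 windows of 10 Mb with at least 50 shared regions, 21 had more than 15% weakened, and 12 of these were among the 18 windows of chromosome 4, 11 of them beyond that point. The first 10 Mb of the chromosome had 4.84% weakened and 8.87% strengthened, with a median change of 1.55 points, and the window from 40 to 50 Mb had 8.24% weakened. Chromosomes 4 and X held 12.9% of weakened and 5.93% of the other shared regions. The HNF4 difference was 1.26 points without these chromosomes (2.76% against 1.503%), and the promoter difference was -7.71 points. A change in copy number of these chromosomes during cloning and an effect of HNF4G loss cannot be told apart here.

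Neighbors of weakened regions were somewhat more often weakened or lost than control regions in general. Of the immediate neighbors of weakened regions in the control list, 7.30% were weakened and 29.4% had no KO counterpart. Over all control regions these shares were 5.17% and 24.96%. Most neighbors, 59.9%, were shared regions that neither weakened nor strengthened. The shares were not adjusted for chromosome. Of the 20046 protein-coding genes, 5495 had a weakened region within 50 kb of a start site and 10 had at least 5. FMN1, a formin that nucleates actin filaments, had 6 of 26 shared regions weakened, and GLIS3, a zinc finger factor of pancreatic beta cells, 6 of 29. SHROOM4 had 5 of 6, with a median change of -30.3 points. The others with 5 were SH3D19 (of 12), KDM8 and PSD3 (of 15), ARHGAP24 and the urate transporter gene SLC2A9 (of 16), TADA2A (of 18) and the phosphodiesterase gene PDE4D (of 45), of which SH3D19, ARHGAP24 and SLC2A9 are on chromosome 4. At PDE4D this was 11.1%, with a median change of -0.276 points. Genes with more shared regions could reach a count of 5 more easily.

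Very long genes held more weakened regions when whole gene bodies were counted, a count chosen after the regions above had been seen. Inside NAALADL2, which spans 1372 kb, 6 of 8 shared regions weakened, with changes of -24.7, -59.7, -21.6, -80.6, -40.2 and -21.3 points, and the remaining regions changed by -4.10 and 1.65. Inside the neuronal adhesion genes CNTNAP2 and ROBO2, 6 of 14 regions weakened in each. Other genes over 1 Mb had lower shares, with 8 of 55 in MACROD2, 7 of 53 in RUNX1, 7 of 57 in PDE4D and 6 of 28 in AUTS2. Outside protein-coding promoters and at control percentile 20 or higher, 7.93% (7.39 to 8.51) of regions in genes of up to 100 kb weakened, 10.0% in genes of 100 to 500 kb, 13.4% in genes of 500 kb to 1 Mb and 19.4% (16.6 to 22.7) in longer genes, beside 10.9% in no protein-coding gene. Distance from start sites rises with gene length, and its part in this order was not tested.

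There were 10 lists of genes of the pancreas, the gut and pancreatic cancer. All but the brush border list had a share of weakened regions below the 6.89% of all shared regions. That value lay inside the 95% interval of 5 of these 9 (classical, basal, lipid, mesenchymal and mucin). It is not matched for distance, because it includes shared regions more than 50 kb from protein-coding start sites, which the lists leave out. Such regions weakened more often, with 9.3% between 50 and 100 kb and 16.5% beyond 500 kb. Whether any list differed from other regions at the same distance was not tested. Within 50 kb of the start sites of 20 brush border genes, which build the microvilli of absorptive epithelium, 20 of 213 shared regions weakened, or 9.39% (6.16 to 14.1), an interval that holds the share over all shared regions. EPS8, which caps actin filaments in microvilli, had 4 of 22, ESPN, an actin bundler, 3 of 17 with the deepest at -36.9 points, and the brush border protease gene MEP1A 2 of 5. For the classical subtype the share was 4.43% (9 of 203), with falls of -43.6 points at CYP3A7, -27.7 at ANXA10 and -26.1 at LGALS4. For the basal subtype it was 4.48% (10 of 223), where an intronic region at LEMD1 moved from percentile 85.9 to 26.0. Of these members, 1 in the brush border list and none in the other lists held the HNF4 consensus.

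Among lipid and lipoprotein genes 6 of 158 shared regions weakened, including an exonic region near the sterol transporter genes ABCG5 and ABCG8 (-33.0) and an intronic region of PPARGC1A, a coactivator of nuclear receptors (-34.4). Mucin and mucin glycosylation genes had 9 of 205, with the deepest at GALNT3 (-42.9), which starts O-glycan chains. Mesenchymal and EMT genes had 7 of 155, including SNAI2 (-30.3), and epithelial junction genes 6 of 221, including EPCAM (-30.4) and OCLN (-30.3). Gut and pancreas transcription factors had 8 of 233, including CDX2 (-29.2), and nuclear receptor genes 7 of 272, including VDR (-29.6) and NR3C1 (-26.2). Ribosomal protein genes, a housekeeping set, had 6 of 217. The median change lay between -0.11 and 2.97 points in the 10 lists, beside 0.0127 over all shared regions.

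At HNF4G itself, with 10 kb on each side, 2 of 9 shared regions weakened, both in introns. They changed by -24.1 points (percentile 69.4 to 45.3) and -20.8 (60.7 to 39.9), and the region over the annotated gene start changed by 4.25. Accessibility does not show whether the gene was edited. At HNF4A, the paralog, none of 11 regions weakened, with changes from -9.50 to 17.0 points. None of 2 regions at FOXA1, 1 at FOXA2, 3 at GATA6 and 6 at PRMT1 weakened. Over all shared regions 6.89% weakened, and counts as small as those at these loci do not set any of the genes apart. At MYC 1 of 4 did, a region beyond its 3′ end that moved from percentile 43.4 to 6.91, while the other 3 changed by between 3.33 and 9.87 points.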

How the data were processed

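ATAC-seq libraries (Omni-ATAC) came from 4 replicates per group, grouped by title. The authors deposited 1 list per group with a score per region, a whole number whose scale is not stated, so the score was used only for ranks. The submitters' processing notes name Bowtie2 2.2.6, MACS2 2.1.1.20160309 and DiffBind. For ATAC-seq, peak-calling settings, thresholds and the handling of replicates are not given in the sources used here, and depth is unknown. All region ends lay inside hg38 chromosomes. Coordinates are 1-based.

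Percentiles were average ranks among shared regions. The members and gene lists were chosen with earlier results of these data known. Named regions were, among 1-to-1 pairs of at least 200 bp, the 10 largest falls, the 10 highest HNF4 regions and the 5 largest falls at protein-coding promoters, and besides these the 3 on each side of the threshold, the 10 genes with most members, up to 4 genes per list and a set of loci. Some of these are not reported here. GENCODE release 44 gave start sites. Code (Python 3.11.15, pandas 2.3.3, SciPy 1.17.1, pysam 0.24.0) was tested on simulated data. Alternatives covered pairing, percentile base, threshold, chromosomes, width, consensus and promoter distance.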

Additional observations from a re-analysis of the deposited data

How the results depend on the processing

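Over the changes of pairing, percentiles, threshold and chromosomes, the HNF4 difference ranged from 0.852 to 2.02 points and the promoter difference from -10.2 to -6.91. Within promoters alone the HNF4 difference was -0.076. Of 57 values, the reversed consensus (a control) among them, 36 stayed close to the main value, 21 moved further and none changed sign. Close meant a move smaller than the distance from the center to the end of the main value's 95% interval. For the count it meant less than 1.5 times. At a threshold of -10 the number of weakened regions was 16949, the range over autosomes 20.5 points and the median width ratio 0.789. At -30 they were 2010, 5.44 points and 0.655, the HNF4 difference 2.02 and the promoter difference -10.2. With percentiles over each whole list the values were 13184 regions, 15.9 points, 0.749 and -6.91 for promoters. Percentiles within each chromosome left a range of 4.31 points, down from 11.3, with 5918 regions. Requiring each region to cover 50% of the other gave 9.72 points, 0.780 and -7.02, and only 1-to-1 pairs gave -6.92 for promoters. The HNF4 difference was 0.609 in 200 bp about the center, 3.83 with 1 mismatch and 0.0218 for the reversed consensus. These points do not compare directly, because the sequences differ in how common they are. With 1 mismatch the shares were 21.9% and 18.1%, a ratio of 1.21. In 200 bp about the center the ratio was 1.935, beside 1.76 in the main result. Against all other shared regions the promoter difference was -15.5. Leaving out chromosomes 4 and X, and sites with flanks like another's (HNF4 difference 1.04), were chosen after seeing the data. Of 258 values for 28 named regions, 15 were no longer past the threshold. A region whose pair a setting dropped gave no value and is not in these counts. Requiring 50% cover dropped the NAALADL2 intron region, the regions near NAF1, EMCN, TDRD15, ADAM7, SHROOM4 and TEX13C, and the CDH11 promoter region. Where values moved, the cause was not tested. No paired analysis was possible because each group had 1 list for its 4 replicates.

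The lists hold ranks without depth or replicates, and calling power, copy number and clone cannot be told apart from accessibility. Regions lost from the HNF4G-KO list altogether (29475) are not among the members.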

Other observations

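The largest fall of all belonged to a region near PIWIL4, outside the named set because its control region overlapped several KO regions. It moved from percentile 96.6 to 10.8 with the KO region of longest overlap (771 bp, score 68). The other KO region under it overlapped by 592 bp and had a score of 449. With the higher score the change was -13.9 points, so that it was no longer weakened.

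Weakened regions held somewhat more sequence of many copies. The median 16-base word of the region occurred at least 10 times in hg38 in 9.26% of weakened regions (8.56 to 10.0) and in 7.79% of comparable ones. Of the 164 HNF4 sites in weakened regions, 13 had flanks at least 60% identical to those of another site over 72 bases, or 7.93% (4.69 to 13.1), against 6.21% (4.95 to 7.76) of sites in the other shared regions at control percentile 20 or higher. Of 6 sets of alike sites the one with the highest share had 3 of 7 weakened, near TEX13C, H2AP and NDUFS1. The other 5 had 2 of 13, 1 of 8, 1 of 7, 1 of 5 and 0 of 4. Both counts were chosen after the values above had been seen.

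The deepest fall among regions with the HNF4 consensus was in an intronic region nearest to CCDC174 (69.2 to 0.78, -68.4 points). That region was not among the named 1-to-1 pairs, and its change under another pairing is not given here. Other deep falls among regions with the consensus were at FGGY (-53.1 points), SMIM21 (-52.7), OPN5 (-51.5) and an exon of FMN1 (-48.5). The regions near CXCL13 (-63.7) and TEX13C (-51.7) belong here too. This set was also chosen after its values were seen.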
